A study of Homo sapiens with 4 samples.

Results

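The untreated human glioblastoma cell lines U251 and U87 were compared with each other, gene by gene. The members were the protein-coding genes with an FPKM of at least 1 in either of the libraries labelled U251 Control and U87 Control, which left 11400 of the 19951 protein-coding genes, and of the 58735 genes listed in all. FPKM are fragments per kilobase of gene, scaled to the size of the library. They allow a rough comparison of levels between genes and between libraries, and the ratios move somewhat with the scaling, as given at the end. These are 2 of the 4 libraries of the series, whose question was what the plant compound brusatol does to such cells, and neither treated library was used. Both lines are established lines of glioblastoma, the most aggressive astrocytic brain tumour, grown in the same serum-supplemented medium, and their labels give the treatment as control. For other assays of the study this meant the solvent DMSO alone. No allele, age or passage is given for either line. Each line was sequenced once from total RNA. No difference described here therefore has a replicate check, no p-value is given, and a difference between the lines cannot be told apart from a difference between these cultures or libraries.

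The library size inside the FPKM was 20974002 for U251 and 18070193 for U87, and the fragments per gene, called reads here, were recovered from the FPKM as whole numbers. The ratio of U87 to U251 was taken on FPKM + 0.1 and is given on the log2 scale, where 1 stands for 2-fold and positive values stand for a higher level in U87. Folds are plain ratios of FPKM, with a 95% interval from the read counts that covers counting error only. A gene with 3 reads or fewer in a library is at or under the floor used here, and a fold against a library with 0 reads was computed against 3 reads in that library. Such a fold is given as at least its value, which refers to this floor of 3 reads and is not a lower 95% limit. For a gene of 1 kilobase this floor lies at an FPKM of 0.143 in U251 and 0.166 in U87.

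Cells of glioblastoma keep traits of the developing brain. Some resemble neural stem cells or immature astrocytes and depend on transcription factors of the SOX, FOX and POU families, whereas others carry a mesenchymal programme of motility, contractile and matrix genes. The matrix around such cells is made of fibrillar collagens, basement membrane sheets of laminins and type IV collagen, and matricellular proteins that signal to cells rather than build fibres. Metalloproteinases cut this matrix, their tissue inhibitors hold them back, and integrins link it to the cytoskeleton.

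Most genes stood at similar levels in both lines. Of the 11400 genes, 7974 (69.9%) lay within 2-fold, and the median log2 ratio was -0.01. Past 2-fold, 1596 genes were higher in U87 (14.0%) and 1830 were higher in U251 (16.1%). Past 8-fold, 444 genes were higher in U87 (3.89%) and 532 were higher in U251 (4.67%). A total of 272 genes with an FPKM of at least 1 in U251 had 3 reads or fewer in U87 (2.39%), and 228 were in the opposite state (2.0%). Such genes are called lost in a line for short, with no claim about its DNA. A lost gene passed the filter only through the other line, which fixed its direction. These shares are the background for the counts of gene groups below. Since no replicate sets a limit, genes just past 2-fold did not stand apart from those just short of it. The FPKM was 0.831 in U251 and 1.76 in U87 for TMEM17, a membrane protein of the cilium base, just past 2-fold, and 10.7 and 21.5 for FADS3, a member of the fatty acid desaturase family, just short of it.

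**Figure D1:**
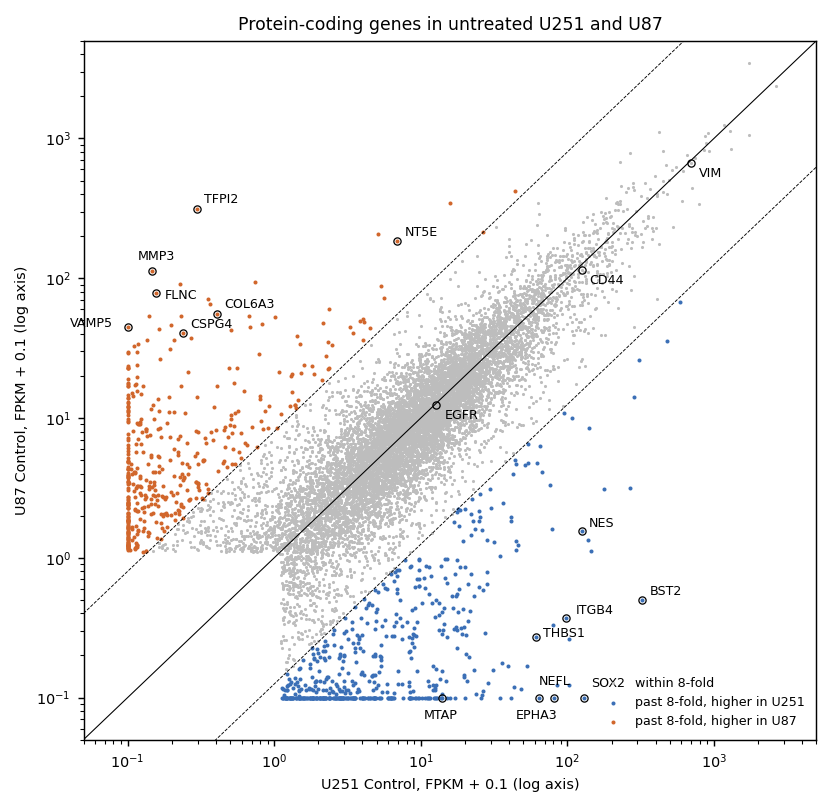
Level of each protein-coding gene in U251 Control (x axis) and U87 Control (y axis), as FPKM + 0.1 on log axes, without genes of chromosome Y and of the mitochondrial genome. The solid line marks equal levels and the dashed lines 8-fold differences. VIM, CD44 and EGFR lie on the line of equal levels, SOX2, NEFL, EPHA3 and MTAP lie at 0 reads in U87, and TFPI2 and MMP3 lie far above the upper dashed line.

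The largest difference, by the ratio on FPKM + 0.1, was that of SOX2, the transcription factor that maintains neural stem cells. SOX2 (ENSG00000181449, chromosome 3, 181711924 to 181714436 in GRCh38) had an FPKM of 129 in U251, from 6790 reads, and 0 reads in U87, so it was at least 1950.0-fold higher in U251. IGFBP2, a secreted binding protein for insulin-like growth factors, had 10200 reads in U251 and 2 in U87, that is an FPKM of 102 against 0.0232. Both were abundant in U251 and at or under the floor in U87. NEFL, the light chain of neuronal intermediate filaments, had an FPKM of 80.5 in U251 and 0 in U87 (at least 2100.2-fold). The secreted Wnt antagonist SFRP1 had 85.5 in U251 and 0.0232 in U87, where 2 reads were counted. EPHA3, a receptor tyrosine kinase for ephrins, had 8941 reads in U251 and 0 in U87 (at least 2568-fold).

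The remaining genes among the 10 with the lowest ratio came from other functions. BST2, an interferon-induced membrane protein also known as tetherin, had an FPKM of 323 in U251, more than SOX2, and of 0.396 in U87, a 817-fold difference (95% interval 415 to 1894). PDE1C, a calmodulin-dependent phosphodiesterase, had 14036 reads in U251 and 4 in U87. MARCKSL1, a membrane-bound actin regulator, had an FPKM of 102 in U251 and 0.163 in U87. FUCA2, a secreted fucosidase, had 42.9 in U251 and 0.0198 in U87, the latter from 1 read. MAGEA3, an antigen that is normally limited to testis, had 1536 reads in U251 and 0 in U87, as had its neighbour MAGEA6 with 1352 and 0. These paralogs are nearly identical, with 56.5% of the 50-base stretches of MAGEA3 found in transcripts of other genes, and the division of reads between them is uncertain. Of 26 cancer-testis genes, these 2 passed the filter, and 18 had 0 reads in both lines.

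Genes at the opposite end were of varied kinds. TFPI2 (ENSG00000105825, chromosome 7, 93885396 to 93890991), a Kunitz inhibitor of plasmin and other serine proteases, had an FPKM of 0.196 in U251 and 315 in U87, which is 1609.8-fold (95% interval 899 to 3225). MMP3, the matrix metalloproteinase stromelysin 1, had 0.0466 in U251, from 2 reads, and 112 in U87, from 4158 reads. FLNC, the muscle type filamin that crosslinks actin, had 0.0565 in U251 and 78.1 in U87 (1381-fold, 772 to 2767). All 3 were thus abundant in U87 and close to the floor in U251. PTGES, the enzyme that makes prostaglandin E2, had an FPKM of 0.126 in U251 and 90.1 in U87. SERPINB2, an inhibitor of plasminogen activators, had 1 read in U251 and 1679 reads in U87. VAMP5, a vesicle protein of muscle, CYBA, a subunit of the NADPH oxidase, and DUSP23, a small phosphatase, had 0 reads in U251 and 660, 1759 and 442 in U87. TCEAL7, a small nuclear protein, and SLC43A3, a nucleobase transporter, had 1 and 1 reads in U251 and an FPKM of 53.1 and 32.7 in U87, although 24.3% of the stretches of SLC43A3 also occur in other annotated transcripts.

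The sequences upstream of 4 genes are shown, since SOX2 and TFPI2 had the largest ratio in each direction and SERPINB2 and EREG were read almost in U87 alone. They were chosen after the values were seen. They are the 250 bases before a start site in RefSeq (GRCh38.p14), from 5′ to 3′ on the strand of the gene. In the SOX2 promoter, of 68.8% G and C, capitals mark the 20 CG dinucleotides. Unmarked, TFPI2 also holds 20, with 64.4% G and C, while EREG holds 11 and SERPINB2 holds 0. The marks differ by gene, so they give no contrast of SOX2 with the others. In the others, capitals mark the letters TGANTCA, to which factors of the FOS and JUN family (AP-1) bind, and TATAAA, the core of the TATA box. Both were searched on the strand shown, and TGANTCA reads the same on the opposite strand, so that its matches cover both. TGANTCA starts 87 bases before the start site in TFPI2 and 102 bases before it in SERPINB2, and TATAAA starts 30 bases before it in SERPINB2 and 32 bases before it in EREG, the gene of the growth factor epiregulin. Among all 35116 promoters of the table, 6.57% hold TGANTCA and 6.80% hold TATAAA in these 250 bases, and among the 9394 promoters found for the genes compared the shares were 3.70% and 3.34%. The start site used lies 16013 bases inside the gene as the files draw it for SERPINB2 and 238 bases inside it for TFPI2. A match of letters is a description and does not show binding.
SOX2, chr3:181711675-181711924, plus strand: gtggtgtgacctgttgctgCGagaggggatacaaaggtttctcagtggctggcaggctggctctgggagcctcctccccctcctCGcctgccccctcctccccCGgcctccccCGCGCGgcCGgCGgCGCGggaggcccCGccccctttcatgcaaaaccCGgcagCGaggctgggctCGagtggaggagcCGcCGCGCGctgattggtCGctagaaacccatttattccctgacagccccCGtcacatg
TFPI2, chr7:93890754-93891003, minus strand: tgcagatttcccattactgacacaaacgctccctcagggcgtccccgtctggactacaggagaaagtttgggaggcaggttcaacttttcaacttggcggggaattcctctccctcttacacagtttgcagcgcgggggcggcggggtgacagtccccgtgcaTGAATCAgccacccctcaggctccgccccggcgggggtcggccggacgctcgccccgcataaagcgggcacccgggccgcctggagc
SERPINB2, chr18:63887455-63887704, plus strand: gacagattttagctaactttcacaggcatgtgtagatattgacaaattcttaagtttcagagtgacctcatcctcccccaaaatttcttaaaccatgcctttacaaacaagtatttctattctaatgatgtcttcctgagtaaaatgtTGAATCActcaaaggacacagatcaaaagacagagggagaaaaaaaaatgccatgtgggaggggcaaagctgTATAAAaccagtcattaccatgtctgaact
EREG, chr4:74364895-74365144, plus strand: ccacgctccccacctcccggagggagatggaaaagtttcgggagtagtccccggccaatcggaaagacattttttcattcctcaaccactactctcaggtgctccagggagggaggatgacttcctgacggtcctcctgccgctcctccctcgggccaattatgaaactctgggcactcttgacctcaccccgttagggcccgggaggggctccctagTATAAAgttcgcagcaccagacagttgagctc

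Neural stem cell and patterning factors were mostly higher in U251. Of 21 such factors, 12 passed the level filter, 10 of these were more than 2-fold higher in U251, against 16.1% of all genes, 0 were higher in U87, and the median log2 ratio was -3.62. Without a filter this median was -2.12. Of the 12, 2 were at or under the floor in U87, so they passed only through U251 and their direction was fixed by the filter. NES, the intermediate filament nestin of neural progenitors, had an FPKM of 125 in U251 and 1.46 in U87, a ratio of 85.4 to 1. POU3F2, a POU factor of neural progenitors and glioma stem cells, had 45.8 and 1.13, and MEIS2, a homeobox factor, had 36.0 and 2.37. SOX9, a SOX factor of astrocytes and cartilage, was closer in level with 70.8 in U251 and 16.9 in U87 (4.18-fold). LHX2, a homeobox factor of the cortex, had 134 reads in U251 and 0 in U87. The forebrain and cerebellar factors ZIC1 and ZIC2 were the exceptions, with 2.62 and 2.26 in U251 and 4.52 and 1.76 in U87, both within 2-fold.

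Markers of astrocytes differed from each other in level and direction. Of 20 astrocyte and radial glia markers, 10 passed the filter, 5 were higher in U251, 2 were higher in U87 and the median log2 ratio was -0.88. This median was -0.0002 both without a filter and with an FPKM of at least 5 in either library. GFAP, the filament protein that defines astrocytes, had an FPKM of 2.42 in U251 and 0.215 in U87, and S100B had 9 reads in U251 and 0 in U87. AQP4, the astrocyte water channel, had 2 reads in U251 and 1 in U87, so this defining marker was at or under the floor in both lines. GJA1, the gap junction protein connexin 43, had 23.3 in U251 and 23.3 in U87, and the glutamate transporter SLC1A3 had 4.15 and 4.74. FABP7, the fatty acid carrier of radial glia, had 473 reads in U251 and 1 in U87, whereas CLU, the secreted chaperone clusterin, was 6.26-fold higher in U87 (11.4 in U251, 71.3 in U87). Of 13 oligodendrocyte markers, 3 passed the filter and 1 was higher in U251, PTPRZ1, a receptor phosphatase with 919 reads in U251 and 0 in U87. The oligodendrocyte factor SOX10 had 0 reads in both, and OLIG2 had 2 reads in U251 and 38 in U87.

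Of 16 neuronal markers, 9 passed the filter, and the median log2 ratio was -0.50. Besides NEFL, the dendritic protein MAP2 had an FPKM of 12.5 in U251 and 2.36 in U87, and CHGB, a granin of secretory vesicles, had 2.91 and 0.0976. SNAP25, a protein of synaptic vesicle fusion, was higher in U87 (1.89 in U251, 6.28 in U87), and UCHL1, an abundant neuronal deubiquitinase, had 328 and 256. Markers of other cell types were few. None of 9 endothelial and none of 11 immune cell markers passed the filter, with summed FPKM of 1.05 and 0.498 in U251 and 0.981 and 1.31 in U87. The endothelial adhesion protein PECAM1 had 1 read in U251 and 70 in U87, and the leukocyte antigen PTPRC had 3 and 0. Of 11 melanocyte and neural crest markers 2 passed, among them TFAP2A, a neural crest factor with 2607 reads in U251 and 83 in U87. The epithelial cadherin CDH1 had 0 reads in both lines, and of 18 epithelial markers KRT8, KRT18 and CLDN4 passed the filter, of which the keratin KRT18 had 9.67 in U251 and 0.602 in U87.

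Mesenchymal factors were more often higher in U87. Of 26 such genes, 22 passed the filter, 12 were more than 2-fold higher in U87, against 14.0% of all genes, 4 were higher in U251, and the median log2 ratio was 1.77. With an FPKM of at least 5 in either library this median was 0.019. Of the 22, 5 were at or under the floor in U251, so they passed only through U87 and their direction was fixed by the filter. FOXD1, a factor of mesenchyme in the developing kidney and skull, had 2 reads in U251 and an FPKM of 35.8 in U87. FOXC2, a related forkhead factor, had 1 read in U251 and 19.4 in U87. SNAI2, the transcriptional repressor slug, had an FPKM of 2.39 in U251 and 33.1 in U87 (13.8-fold, 95% interval 11.8 to 16.3). The mesodermal T-box factor TBX18 had 1 read in U251 and 696 reads in U87. Cell surface markers of stroma were also higher, since NT5E, the ecto-enzyme CD73, had 6.82 in U251 and 183 in U87, and the stromal protease FAP had 3 reads in U251 and 397 in U87. Not all members were higher in U87. THY1, the fibroblast antigen CD90, had 17.5 in U251 and 0.859 in U87, and PRRX1, a mesenchymal homeobox factor, had 11.6 and 12.4.

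Of the abundant members, VIM, CD44 and CDH2 lay within 2-fold. VIM, the filament protein vimentin, had an FPKM of 701 in U251 and 669 in U87, and the hyaluronan receptor CD44 had 125 and 115. The cadherin CDH2 had 32.7 and 17.1, whereas TWIST1, a bHLH factor of mesoderm, was 2.59-fold higher in U87 (95% interval 2.20 to 3.06). Of 13 contractile genes, 6 passed the filter and 5 were higher in U87, with a median log2 ratio of 1.30, or 0.48 without a filter. MYL9, the regulatory light chain of smooth muscle myosin, had 0 reads in U251 and 863 reads in U87 (at least 334-fold), while ACTA2, smooth muscle actin, had an FPKM of 1.23 and 3.40, and CALD1, which binds actin and calmodulin, had 9.96 and 21.6. In bulk RNA, fewer cells of a kind and less RNA per cell cannot be told apart.

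HOX genes give positional identity along the body axis and are silent in most of the adult brain. Of 39 HOX genes, 23 passed the filter, of which 13 were higher in U251 and 4 in U87, with a median log2 ratio of -2.00. HOXC10 had an FPKM of 14.4 in U251 and 0.237 in U87, HOXB7 had 17.4 and 0.435, and HOXD11 had 17.7 and 0.446. The HOXB cluster was mixed, since HOXB2 (0.469 in U251, 11.2 in U87), HOXB4 and HOXB6 were higher in U87 and HOXB3, HOXB7, HOXB9 and HOXB13 were higher in U251. HOXA9 and HOXA10 had 0 reads in both lines. Neighbouring HOX genes overlap in their transcripts, and strand-specific counting was not stated, so that single members are uncertain.

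**Figure D2:**
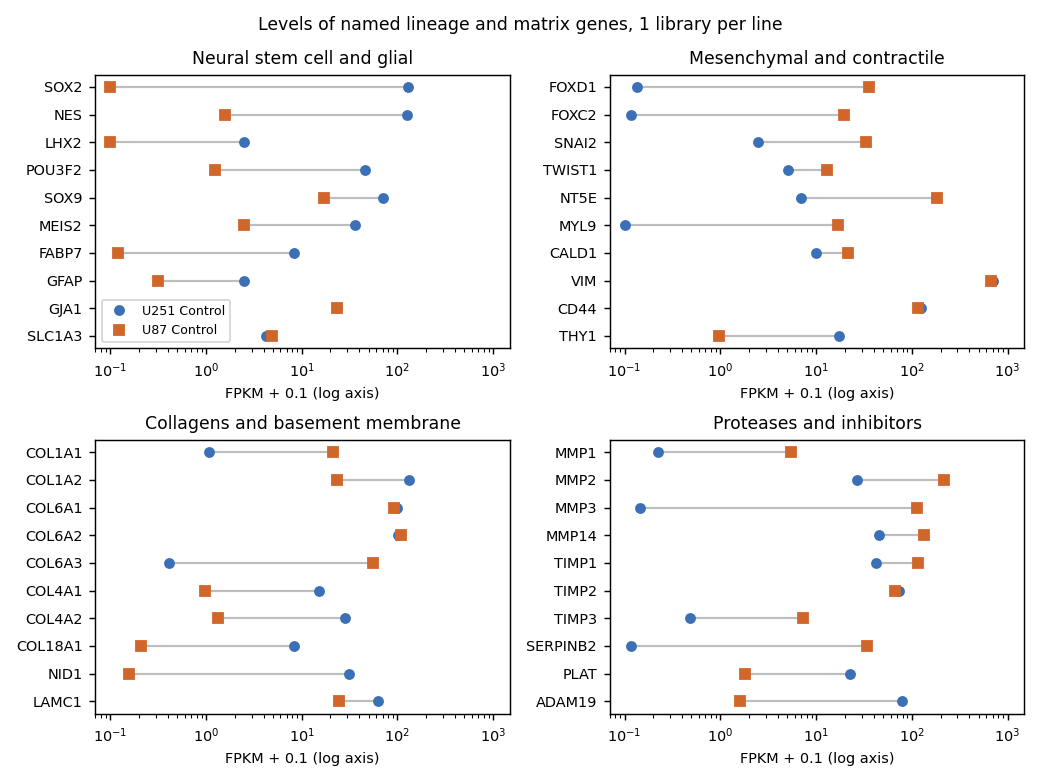
Levels of 40 named genes as FPKM + 0.1 on a log axis, with circles for U251 Control and squares for U87 Control, 1 library each. Neural stem cell factors lie to the right in U251 (SOX2 at 129 against 0), SNAI2 and NT5E lie to the right in U87, COL6A1 and COL6A2 coincide while COL6A3 does not, and MMP1, MMP2, MMP3 and MMP14 all lie to the right in U87.

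Collagens differed chain by chain rather than as a group. Of 36 collagen genes outside the basement membrane, 18 passed the filter, with 5 higher in U87, 9 higher in U251 and a median log2 ratio of -0.73, which was 0.029 without a filter and -0.090 with an FPKM of at least 5 in either library. Type I collagen, the main fibre of connective tissue, is a trimer of COL1A1 and COL1A2 chains. COL1A1 had an FPKM of 0.981 in U251 and 21.1 in U87 (21.5-fold, 95% interval 18.7 to 24.9), whereas COL1A2 had 133 in U251 and 23.5 in U87, a 5.65-fold difference in the other direction (5.48 to 5.82). The 2 chains thus stood at similar levels in U87 and far apart in U251.

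Type VI collagen, a microfibril of the pericellular matrix, showed a similar split. COL6A1 had 98.6 in U251 and 92.6 in U87 and COL6A2 had 100.1 and 109.8, while the large chain COL6A3 had 0.308 in U251 and 55.4 in U87 (179.8-fold, 95% interval 151 to 216). The minor fibrillar chains were higher in U251, with COL5A2 at 56.0 against 14.1 and COL11A1 at 6.83 against 0.0243. COL12A1, which coats fibrils, had 51.5 in U251 and 4.52 in U87, and COL21A1 of the same class had 739 and 3 reads. COL7A1, the anchoring fibril, had 349 reads in U251 and 4799 in U87, and COL16A1 had an FPKM of 0.288 in U251 and 11.9 in U87. COL3A1 had 0 reads in U251 and 10 in U87, and the small proteoglycan DCN, which decorates fibrils, had 0 in both.

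Basement membrane genes were mainly higher in U251. Of 23 such genes, 17 passed the filter, 10 were higher in U251, 3 were higher in U87, and the median log2 ratio was -1.19. All 5 type IV and type XVIII collagen genes that passed were higher in U251, among them COL4A1 (14.9 in U251, 0.875 in U87), its partner COL4A2 (28.0 and 1.24) and COL18A1, the precursor of endostatin (8.16 and 0.110). The linker protein nidogen is made from either of 2 genes, and each line used mainly a different one. NID1 had an FPKM of 31.0 in U251 and 0.0566 in U87, and NID2 had 0.0448 in U251 and 2.31 in U87. Laminin chains differed less, with LAMC1 at 62.9 and 24.7, LAMB1 at 51.1 and 29.5 and LAMA4 at 12.2 and 14.6, but LAMA3 had 4 reads in U251 and 282 in U87.

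Matricellular genes held some of the most abundant messages of U251. Of 26 adhesive and matricellular genes, 15 passed, 9 were higher in U251, 4 were higher in U87 and the median log2 ratio was -1.45. CYR61 and CTGF, cysteine-rich proteins that are targets of the YAP coactivator, had an FPKM of 585 and 480.5 in U251 and 67.6 and 35.6 in U87. NOV, of the same family, went the other way and had 3.34 in U251 and 40.6 in U87. THBS1, the matrix glycoprotein thrombospondin 1, had 60.8 in U251 and 0.169 in U87 (359.5-fold, 95% interval 249 to 541), and THBS2 had 44.7 and 1.03. SPARC, a collagen-binding protein, had 411 and 71.1. Fibronectin and tenascin were higher in U87, with FN1 at 15.7 in U251 and 51.3 in U87 and TNC at 34.1 and 81.5. SMOC1, a calcium-binding protein of basement membranes, had 2 reads in U251 and 708 in U87. ECM1, the extracellular matrix protein that the study followed, had 5.11 in U251 and 6.47 in U87, a 1.27-fold difference (95% interval 1.10 to 1.47).

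Elastic fibre genes were split. Of 17 elastic fibre and latent TGF-beta binding genes, 11 passed, with 5 higher in U87 and 2 in U251. MFAP2, a microfibril glycoprotein, had 0 reads in U251 and 544 in U87 (at least 210.5-fold), and FBN1, fibrillin itself, had an FPKM of 4.66 in U251 and 14.7 in U87. FBLN1 and EFEMP1, both of the fibulin family, had 14.7 and 67.5 in U251 and 0.0304 and 4.04 in U87. Of 34 proteoglycan and hyaluronan genes, 19 passed, with 5 in each direction past 2-fold and a median log2 ratio of 0.07. CSPG4, the proteoglycan NG2 of pericytes and glial precursors, had 0.138 in U251 and 40.1 in U87 (291-fold, 95% interval 195 to 454), whereas GPC4, a lipid-anchored glypican, had 26.5 in U251 and 0.0112 in U87, from 1 read. SRGN, the granule proteoglycan serglycin, had 0.391 and 22.8. The brain proteoglycan VCAN was level, at 16.5 and 17.1. HAS1 and HAS3, which make hyaluronan, went in opposite directions, with 1 read in U251 and 151 in U87 for HAS1 and an FPKM of 6.13 and 0.670 for HAS3, while HAS2 had 7.99 and 5.69.

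Matrix metalloproteinases were mostly higher in U87. Of 18 metalloproteinase genes, 8 passed the filter, 7 were higher in U87, against 14.0% of all genes, 0 were higher in U251, and the median log2 ratio was 1.97. Among these, MMP1 and MMP3 passed only through U87, so their direction was fixed by the filter. MMP2, the gelatinase that cleaves type IV collagen, had an FPKM of 26.6 in U251 and 215 in U87 (8.06-fold, 95% interval 7.74 to 8.39). Its membrane-bound activator MMP14 had 45.5 and 134, and MMP1, the interstitial collagenase, had 5 reads in U251 and 190 in U87. MMP9, the other gelatinase, had 0 reads in both lines and was thus at or under the floor in both. Of their 5 inhibitors 3 were also higher in U87, since TIMP1 had 42.2 in U251 and 116 in U87, TIMP3 had 0.383 and 7.18, and TIMP4 had 1.70 and 23.5. TIMP2 was level at 73.8 and 67.2, and the membrane-anchored inhibitor RECK was higher in U251 (6.92 and 2.14).

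The ADAM and ADAMTS proteases showed no common direction, with 4 of 17 higher in U87, 5 higher in U251 and a median log2 ratio of -0.06. ADAM19, a membrane sheddase, was 52.0-fold higher in U251 (95% interval 45.4 to 60.0), and ADAMTS10, which acts on microfibrils, had 343 reads in U251 and 0 in U87. ADAMTS1, a secreted protease that cleaves proteoglycans, had 5.49 in U251 and 71.8 in U87, and ADAMTS5 had 0.121 and 6.94. In the plasminogen system, PLAT, tissue plasminogen activator, was higher in U251 (22.5 and 1.73) and SERPINB2 in U87 (18.2% of whose stretches occur in other genes), while the urokinase gene PLAU (126 and 64.1) lay within 2-fold. Of 19 integrin genes, 13 passed and 8 of these lay within 2-fold, the abundant ITGB1 and ITGA3 among them. ITGB4, the laminin-binding chain of hemidesmosomes, had 98.2 in U251 and 0.270 in U87 (364-fold, 95% interval 259 to 529), its partner ITGA6 had 21.4 and 5.17, and ITGB8, which activates latent TGF-beta, had 28.3 and 0.544. The fibronectin receptor chain ITGA5 was higher in U87, with 15.7 in U251 and 98.5 in U87, as was ITGB3 (1.46 and 8.64), although 50.7% of its stretches occur in another gene model that spans it.

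Among the receptor tyrosine kinases, EGFR, MET and AXL lay within 2-fold. EGFR, the receptor for epidermal growth factor, had an FPKM of 12.5 in U251 and 12.3 in U87, MET, the receptor for hepatocyte growth factor, had 54.2 and 75.5, and AXL, a receptor for GAS6, had 50.9 and 65.5. Of 50 receptor genes, 25 passed the filter, of which 12 were higher in U251, 6 were higher in U87 and the median log2 ratio was -0.25. With a filter on the mean FPKM instead, this median was -1.86. Besides EPHA3, the pseudokinase PTK7 of planar polarity had 4469 reads in U251 and 1 in U87, and FGFR3, a fibroblast growth factor receptor, had 275 and 1. PDGFRA, the platelet-derived growth factor receptor of glial precursors, had 3.48 in U251 and 0.125 in U87, whereas PDGFRB, that of pericytes and stroma, had 0.521 and 2.74. Each line thus held more of a different PDGF receptor. EPHB1, a receptor for B-type ephrins, had 0 reads in U251 and 144 in U87.

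Ligands of these receptors had a median log2 ratio of -0.07 over the 25 of 37 genes that passed, with 7 higher in U87 and 6 in U251. HGF, the ligand of MET, had 1 read in U251 and an FPKM of 4.24 in U87 from 753 reads. EREG, a ligand of EGFR, had 2 reads in U251 and 23.9 in U87, while EGF itself had 2.86 in U251 and 0.0813 in U87. GDNF, the ligand of RET, had 0 reads in U251 and 252 in U87 (at least 97.5-fold), although RET had 0 reads in both. PDGFD, a ligand of PDGFRB, had 309 reads in U251 and 0 in U87 (at least 88.7-fold), and GAS6 had an FPKM of 8.68 and 0.184.

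Insulin-like growth factor binding proteins divided between the lines. IGFBP2, IGFBP4, IGFBP5 and IGFBP7 were higher in U251, IGFBP5 with 7161 reads against 8 in U87 and IGFBP7 with an FPKM of 108 against 9.86. IGFBP6, which binds IGF2 by preference, was higher in U87, with 43.5 in U251 and 424 in U87 (9.74-fold, 95% interval 9.18 to 10.3), and IGFBP3 had 0.522 and 2.64. In all, 5 of the 13 IGF system genes that passed were higher in U251 and 4 in U87, with a median log2 ratio of 0.11. The receptor IGF1R, counted with the tyrosine kinases, had 12.6 and 2.43 and the adaptor IRS2 had 22.1 and 2.55.

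TGF-beta and BMP genes were split, with large differences in some ligands and antagonists. Of 47 genes, 32 passed, 9 were higher in U87, 8 were higher in U251 and the median log2 ratio was 0.42. TGFB1 was level (55.8 and 53.4). GREM1, a secreted BMP antagonist, had 0 reads in U251 and 1666 in U87 (at least 645-fold), and BMP2 had 2 reads in U251 and 363 in U87. BMP6 had 143 reads in U251 and 0 in U87 (at least 41.1-fold). The inhibitory SMAD7 was 8.51-fold higher in U87 (1.11 in U251, 9.43 in U87). SMAD2, SMAD4 and SMAD7 lie on chromosome 18, whose genes had the highest median ratio of all chromosomes, as described below.

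Wnt receptors and antagonists were more often higher in U251. Of 31 such genes, 17 passed, 9 were higher in U251 and 2 in U87, with a median log2 ratio of -1.26. The secreted antagonist DKK1 had an FPKM of 179 in U251 and 3.01 in U87 (59.4-fold, 95% interval 49.6 to 71.8), and the coreceptor LRP5 had 1735 reads in U251 and 4 in U87. The ligand WNT7B went the other way, with 0.453 in U251 and 22.8 in U87, as did TCF7, a transcription factor of the pathway (0.431 and 8.63). In the Notch pathway, 10 of 20 genes passed, of which 7 were higher in U251 and 1 in U87, with a median log2 ratio of -1.76. The target genes HES1 and HES4 had 76.3 and 28.1 in U251 and 3.22 and 0.693 in U87, the target NRARP had 105 reads in U251 and 0 in U87, and the ligand JAG1 had 8.97 and 2.35. The receptor NOTCH2 lay within 2-fold at 27.3 and 19.2.

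Guidance cues steer growing axons and migrating cells. Of 52 such genes, 37 passed, 19 were higher in U251, against 16.1% of all genes, 4 were higher in U87, and the median log2 ratio was -1.10. The netrin NTN1 had 1113 reads in U251 and 1 in U87, its receptor UNC5C had 1292 and 5, and EFNB3, a B-type ephrin, had 328 and 1. SEMA3A, a secreted semaphorin, had an FPKM of 25.2 in U251 and 1.87 in U87, while the membrane-anchored SEMA7A had 4.38 and 44.2. Feedback genes of the ERK pathway, which report its activity, had a median log2 ratio of -0.01. Of 19, all passed the filter, 4 were higher in U87 and 5 in U251. DUSP6, an ERK phosphatase, was level at 12.9 and 12.2, as were MYC (57.9 and 57.5) and CCND1 (133 and 153). SPRY1, a receptor kinase inhibitor, stood apart with 1029 reads in U251 and 1 in U87, while its paralog SPRY2 had an FPKM of 27.2 and 39.3.

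Cytokine genes were somewhat more often higher in U87. Of 37 cytokine and receptor genes, 23 passed, 9 were higher in U87, 4 were higher in U251 and the median log2 ratio was 0.71, or 0.11 with an FPKM of at least 5 in either library. CSF3, the granulocyte colony-stimulating factor, had 5 reads in U251 and 1436 in U87, and the inflammatory cytokine IL1B had 4 and 463. IL18, of the same cytokine family, was higher in U251 with an FPKM of 27.2 against 0.190, as was the monocyte chemokine CCL2 (917 and 49 reads). IL6 (3.43 and 4.65), CXCL8 (62.3 and 38.4) and IL13RA2, a decoy receptor common in glioblastoma (112 and 177), lay within 2-fold.

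Interferon-stimulated genes were more often higher in U251. Of 40, 35 passed, 18 lay within 2-fold and the median log2 ratio was -0.59. In U251 12 were higher (34.3%, against 16.1% of all genes), and in U87 5 were higher (14.3%, against 14.0%). Alongside BST2, IFITM1, which restricts virus entry, was 58.4-fold higher in U251 (95% interval 26.6 to 160.2), IFI27 had an FPKM of 13.9 and 0.307, and TMEM173, the innate sensor STING, had 9.59 and 0.532. A share of 32.0% of the stretches of IFITM1 also occur in other genes, mainly its paralogs.

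Genes of HLA class II, which present antigen to T helper cells, were read almost in U87 alone. Of 10 class II genes and helpers, 6 passed the filter and all were higher in U87, against 14.0% of all genes. Summed over all 10, the FPKM was 0.263 in U251 and 39.5 in U87. None of the 10 thus reached an FPKM of 1 in U251, so the 6 passed only through U87 and their direction was fixed by the filter. CD74, the invariant chain, had 0 reads in U251 and an FPKM of 14.5 in U87 from 837 reads (at least 324-fold). HLA-DRB1 had 0 and 304 reads, HLA-DPA1 had 0 and 196, and HLA-DRA had 0 and 27. CIITA, the coactivator that switches class II genes on, did not pass the filter, with 16 reads in U251 and 255 in U87. Only HLA-DMA had reads above the floor in U251 among those that passed (12 in U251, 220 in U87). Of 12 genes of class I and antigen processing that passed, 9 lay within 2-fold, with B2M at 125 and 180.3, while PSMB9, an immunoproteasome subunit, was 9.07-fold higher in U87 (0.667 and 6.05). HLA genes vary between people, and reads of an allele far from the reference can be missed.

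Loci that are often altered in glioblastoma differed in a few places. CDKN2A and CDKN2B, cell cycle inhibitors on chromosome 9, had 0 reads in both lines, and so had MGMT, the DNA repair enzyme that counters temozolomide. MTAP, next to CDKN2A and an enzyme of methionine salvage, had an FPKM of 13.9 in U251 from 4249 reads and 0 reads in U87 (at least 1220.2-fold). RB1, which restrains the cell cycle, had 21.3 in U251 and 7.86 in U87 (2.71-fold, 95% interval 2.52 to 2.93), and the cyclin-dependent kinase CDK6 had 20.9 and 4.69. A level of RNA says nothing of the sequence of such genes. Of 27 such genes, 20 passed, 7 were higher in U251 and 1 in U87, the latter being PTPRD, a receptor phosphatase (1 read in U251, 208 in U87), and the median log2 ratio was -0.79.

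Genes of S phase and mitosis were close, with 18 of 20 within 2-fold and a median log2 ratio of -0.09. MKI67, the usual proliferation marker, had 47.3 and 45.1, and the exceptions were TOP2A (154 in U251, 60.0 in U87) and TYMS (68.4 and 27.6). Of 14 reference genes 13 lay within 2-fold, with GAPDH at 883 and 925 and ACTB at 1294 and 1124. The exception was TFRC, the transferrin receptor (157 and 61.1).

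**Figure D3:**
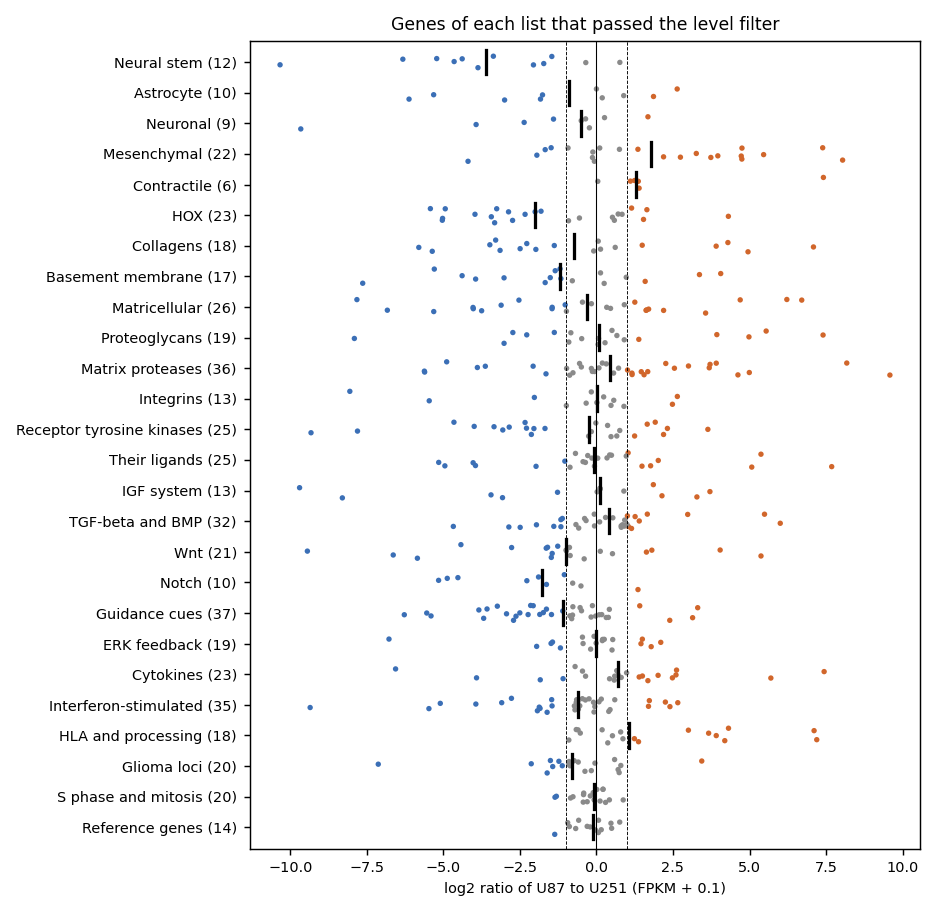
Log2 ratio of U87 to U251 (x axis, on FPKM + 0.1) for each gene that passed the level filter, 1 row per gene list with the number of genes in brackets, a vertical bar at the median and dashed lines at 2-fold. Neural stem cell, HOX and Notch genes lie mostly to the left (higher in U251), with medians of -3.62, -2.00 and -1.76, mesenchymal genes lie mostly to the right with a median of 1.77, and reference genes cluster at 0.

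The most abundant messages were largely shared. FTL, the ferritin light chain, led in U251 with an FPKM of 2664 and had 2382 in U87, and TMSB10, an actin-binding thymosin, led in U87 with 3462 and had 1747 in U251. Outside the mitochondrial genome, the calcium-binding protein S100A6, the actins ACTB and ACTG1 and the ribosomal protein RPL41 were also among the 8 highest of both libraries. FTH1, the ferritin heavy chain, was 2.62-fold higher in U87 (424 in U251, 1112 in U87). Ferritin and ribosomal protein genes share sequence with pseudogenes, 19.9% of the stretches in the case of FTH1. Of the genes described earlier, this share was 19.8% for HOXD11 and 15.1% for PDGFRA, counting stretches in any other gene, and their values are uncertain to that extent.

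The 272 genes lost in U87 and the 228 lost in U251 were described by their position. Of the former 178 had 0 reads in U87, and of the latter 132 had 0 reads in U251. Besides those named above, TNFSF4, the costimulatory ligand OX40L, had an FPKM of 28.7 in U251 and 2 reads in U87, and ACP7, a phosphatase, had 29.7 in U87 and 1 read in U251. In 8 places, 3 or more neighbouring genes that passed the filter were at or under the floor in the same line, 5 of them in U87 and 3 in U251.

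On chromosome 9, the 5 neighbours MLLT3, FOCAD, KLHL9, MTAP and DMRTA1, between 20341665 and 22455740 in GRCh38, had 0 reads in U87. In U251 they had 695, 2119, 2391, 4249 and 608 reads. MLLT3 is a transcription elongation factor, FOCAD a focadhesin that has been described as a tumour suppressor in glioma, KLHL9 an adaptor of a ubiquitin ligase and DMRTA1 a transcription factor. The 25 protein-coding genes annotated in this span, among them 16 type I interferon genes, had 0 reads in U87 in all and 10098 reads in U251. Nearly all of the latter came from the 5 genes named, and the next highest was HACD4 with 20 reads. Most of the interferon genes had 0 reads in U251 as well. The nearest gene before the span that passed the filter, RPS6, a ribosomal protein, had an FPKM of 525 in U251 and 231 in U87. The nearest after the span that passed, the RNA-binding ELAVL2, had 2.31 and 0.237. The span holds CDKN2A and CDKN2B. RNA levels cannot tell a missing stretch of DNA from a silent one.

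The 3 runs in U251 were shorter. VSTM4, TMEM273 and DRGX on chromosome 10 had 0 reads in U251 and 203, 887 and 82 in U87. TAGLN3, C3orf52 and GCSAM on chromosome 3 had 1, 0 and 0 reads in U251 and 47, 460 and 114 in U87. The third run was that of HLA-DRA, HLA-DRB5, HLA-DRB1 and HLA-DQB1 on chromosome 6, described above.

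The other 4 runs lay on chromosome 19 and consisted of zinc finger genes. Most of these encode proteins with a KRAB domain, which recruits a repressor complex, often to transposable elements, and they arose by repeated local duplication. The runs held 32 genes, of which 31 have names in ZNF or ZFP, and the other is HKR1, of the same kind. All had 3 reads or fewer in U87, and 30 had 0. The longest run reached from ZNF566 to ZNF607 over 15 genes (36445119 to 37719790), each with 0 reads in U87 and between 110 and 593 reads in U251. The second, from ZNF880 to ZNF600, had 7 genes, and those from ZNF253 to ZNF486 and from ZNF582 to ZNF470 had 5 each. ZNF83 had the highest level, with 1414 reads and an FPKM of 8.40 in U251 and 0 reads in U87 (at least 406-fold).

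The nearest genes beside the runs that passed the filter were read in U87. ZNF480, before the second longest run, had an FPKM of 5.98 in U251 and 7.09 in U87, and SIPA1L3, a GTPase regulator after the longest, had 7.47 and 5.99. ZNF71, after the run that ends with ZNF470, had 2.67 and 1.82. Not every neighbour was level, since ZNF506, before the run that starts with ZNF253, had 305 reads in U251 and 16 in U87, and ZNF28 had 521 and 36.

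Zinc finger genes of this chromosome were also counted as a group, runs included, a grouping chosen after the runs had been seen. The 31 ZNF and ZFP genes of the runs are among the 178, the 98 and the 46 given next. Of 178 ZNF and ZFP genes of chromosome 19 that passed, 98 (55.1%) were more than 2-fold higher in U251, 4 were higher in U87, and 46 (25.8%) were at or under the floor in U87, against 2.39% of all genes. Their median log2 ratio was -1.19. The 202 ZNF and ZFP genes of other chromosomes had a median of -0.26, with 50 (24.8%) higher in U251, 12 (5.94%) higher in U87 and 13 (6.44%) at or under the floor in U87. Over all genes these shares were 16.1%, 14.0% and 2.39%, so zinc finger genes elsewhere were shifted in the same direction, to a lesser extent. The 644 other protein-coding genes of chromosome 19 had a median of -0.08, with 81 (12.6%) higher in U251 and 67 (10.4%) higher in U87. Chromosome 19 held 22.8% of the genes lost in U87 but 7.21% of the genes compared. These are related sequences, so that single values are uncertain where copies are close (24.9% of the stretches of ZNF585B and 22.3% of those of ZNF808 occur in other genes). The 15 genes of the longest run had 0 reads together in U87. Whether their reads were given to genes outside the run was not tested. Genes within the runs that did not pass the filter were left out.

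**Figure D4:**
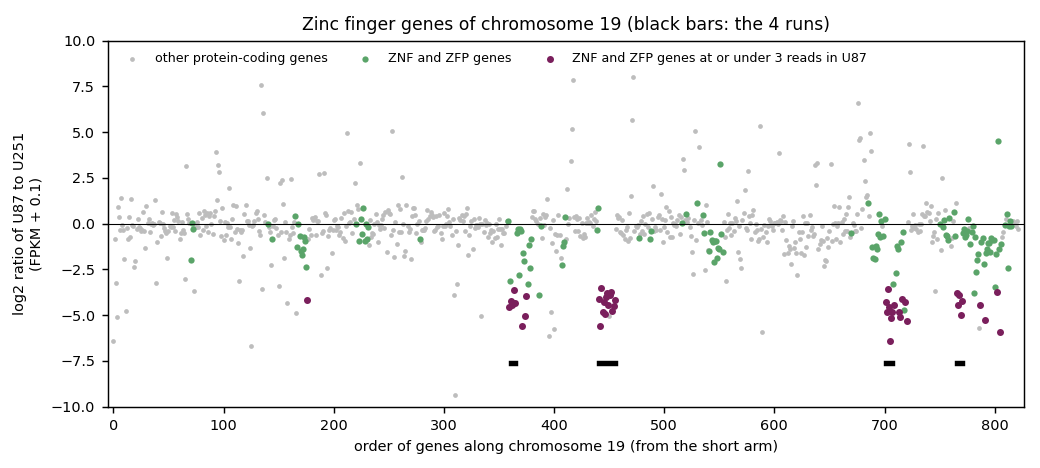
Log2 ratio of U87 to U251 (y axis, on FPKM + 0.1) of the 822 genes of chromosome 19 in their order along the chromosome (x axis), with genes named ZNF or ZFP in green, those at or under 3 reads in U87 in purple and all other genes in grey. The black bars mark the 4 runs, where purple points sit side by side far below 0, while grey points scatter on both sides of their median of -0.08.

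Promoters of 3 genes from these runs and of ZNF71, a neighbour that both lines read, are shown. The genes share a chromosome and a family but differ in what U87 read. Of the 3, ZNF667 lies in the run next to ZNF71, and ZNF83 and ZNF529 lie in other runs. The sequences are again the 250 bases before the RefSeq start site (GRCh38.p14), with each CG dinucleotide in capitals. ZNF83, ZNF529 and ZNF667 hold 23, 20 and 35 CG dinucleotides and ZNF71 holds 25. The start site used for ZNF667 lies 720 bases inside the gene as the files draw it.
ZNF83, chr19:52690497-52690746, minus strand: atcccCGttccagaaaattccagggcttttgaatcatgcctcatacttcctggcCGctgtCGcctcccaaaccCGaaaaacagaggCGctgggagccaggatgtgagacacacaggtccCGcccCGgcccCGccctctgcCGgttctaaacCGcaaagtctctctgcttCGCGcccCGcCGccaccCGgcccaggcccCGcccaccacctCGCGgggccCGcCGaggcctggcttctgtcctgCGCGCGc
ZNF529, chr19:36605258-36605507, minus strand: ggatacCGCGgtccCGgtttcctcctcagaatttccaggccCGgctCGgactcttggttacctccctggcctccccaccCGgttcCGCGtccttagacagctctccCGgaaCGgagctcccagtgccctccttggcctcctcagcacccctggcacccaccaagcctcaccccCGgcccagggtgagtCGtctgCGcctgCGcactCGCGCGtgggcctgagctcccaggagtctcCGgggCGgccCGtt
ZNF667, chr19:56477346-56477595, minus strand: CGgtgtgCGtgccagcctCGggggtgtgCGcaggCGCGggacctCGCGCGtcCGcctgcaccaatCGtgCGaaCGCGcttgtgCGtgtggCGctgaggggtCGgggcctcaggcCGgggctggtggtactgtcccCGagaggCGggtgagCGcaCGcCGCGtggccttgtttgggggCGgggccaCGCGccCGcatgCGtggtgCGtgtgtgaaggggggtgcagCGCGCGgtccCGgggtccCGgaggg
ZNF71, chr19:56595052-56595301, plus strand: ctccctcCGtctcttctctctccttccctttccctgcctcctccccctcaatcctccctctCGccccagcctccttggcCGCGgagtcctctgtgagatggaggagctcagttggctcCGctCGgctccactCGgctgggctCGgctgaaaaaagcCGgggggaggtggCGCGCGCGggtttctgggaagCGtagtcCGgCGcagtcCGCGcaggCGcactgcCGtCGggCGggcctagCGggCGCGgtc

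By this count the genes at or under the floor had nearly the median of the others. A promoter was found for 41 of the 46 ZNF and ZFP genes of chromosome 19 at or under the floor in U87 and for 118 of the other 132, and the median number of CG dinucleotides was 17 in the former and 16 in the latter. Over all genes compared the median was 21, from the 9394 of 11380 genes with a promoter (chromosome Y and the mitochondrial genome left out). Of the genes lost in U251, 160 of 221 (72.4%) had a promoter in the table, too small a share to stand for the set, so that this check is void for them. The median over those 160 was 13. The methylation of these sites was not measured.

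Whole chromosomes differed in their median ratio. Chromosome 18 had the highest, at 1.07 over 150 genes, of which 52.7% were more than 2-fold higher in U87. Chromosomes 22, 1 and 6 had the lowest, at -0.53, -0.53 and -0.50. All others lay between -0.22 and 0.42. The same chromosomes led when only genes with an FPKM of at least 1 in both lines were taken, with medians of 0.93 for chromosome 18 and -0.52, -0.48 and -0.44 for chromosomes 22, 1 and 6. On chromosome 18, 77.5% of the 120 such genes had a ratio above 0, and on chromosome 22 this was 16.5% of 212.

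Within chromosomes the shift was uneven. In windows of 30 consecutive genes read in both lines, which were added after the chromosome medians were seen, the highest median was 1.52 on chromosome 18 between PIK3C3 and LMAN1, and the lowest was -1.44 on chromosome 1 between HS2ST1 and CNN3. Chromosome 6 had a window at -1.26 from TRIM39 to CSNK2B, which spans HLA class I genes. Of the 12 class I and antigen processing genes counted above, wherever they lie, 0 were more than 2-fold higher in U251 and 3 were higher in U87. Chromosome 9 had a window at -1.16 from PLGRKT to DDX58, around the span without reads, and another at 0.87 from RABEPK to SWI5 on its long arm. The number of DNA copies in these cultures was not measured, and its part in the ratios was not tested. Genes named above on chromosome 18 include LAMA3, SERPINB2, SMAD2, SMAD4 and SMAD7, all more than 2-fold higher in U87, and CDH2 and TYMS, which had lower values in U87 than in U251, and those on chromosome 1 include COL16A1, COL11A1 and MARCKSL1.

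**Figure D5:**
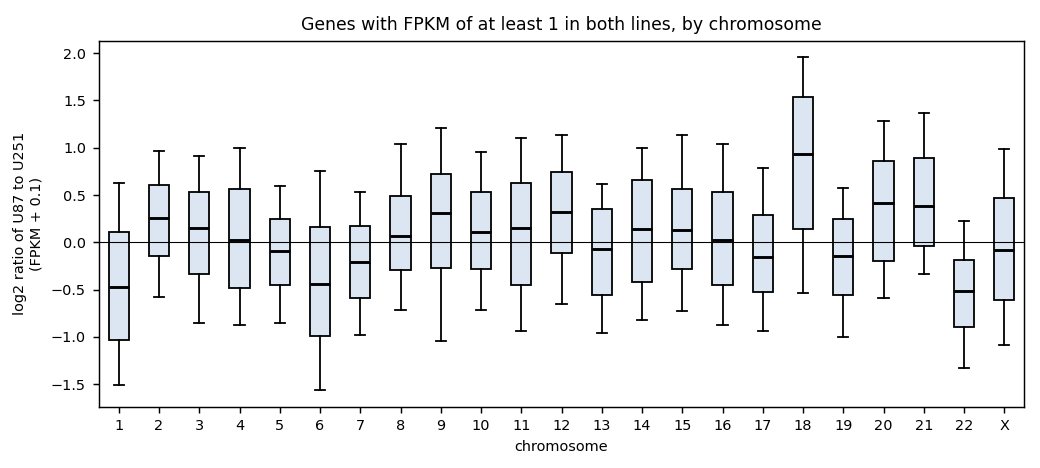
Log2 ratio of U87 to U251 (y axis, on FPKM + 0.1) of genes with an FPKM of at least 1 in both lines, by chromosome. Boxes span the quartiles with a line at the median and whiskers reach the 10th and 90th percentiles. The box of chromosome 18 lies above 0, with a median of 0.93, and that of chromosome 22 lies below 0, with a median of -0.52.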

How the data were processed

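The authors deposited FPKM per gene, made from paired-end reads of total RNA; the submitters' processing notes name HISAT2 2.0.5, StringTie 1.3.3b and featureCounts 1.5.0-p3. The labels give hg18, but the coordinates of all 58735 genes in the files equal those of GENCODE 29 on GRCh38. Strand-specific counting was not stated. In each library FPKM times gene length was a whole multiple of 1 step, the worth of 1 read, and all values came out as whole reads within 0.1 reads, with 21453561 reads on genes in U251 and 18260975 in U87. These totals exceed the library sizes inside the FPKM, 20974002 and 18070193, and the reason was not examined. With 1 library per line no test was run. The ratio on FPKM + 0.1, the filter (FPKM of at least 1 in either library), the floor of 3 reads and exact Clopper-Pearson intervals were computed in Python 3.11.15 (numpy 2.4.6, pandas 2.3.3, scipy 1.17.1) and tested on simulated data. The 27 symbols that a spreadsheet had turned into dates were replaced through gene IDs. Genes of chromosome Y (7) and of the mitochondrial genome (13) are in the counts and are not described. Genes named are the 10 most extreme per direction, the 10 highest among those lost in each line, the 8 highest per library, the genes marked in the lists, the 4 most extreme per list and the genes of runs; others in the text, among them members of lists named for their place beside these, were chosen after their values were seen. The members and lists were chosen with earlier results of these data known. Promoters are from RefSeq. Other scalings, filters and pseudocounts were tried, and columns of the treated libraries were not used. Some genes and 1 gene list are not reported here.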

Additional observations from a re-analysis of the deposited data

How the results depend on the processing

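With FPKM of at least 5 in either library, 955 genes were past 2-fold and higher in U87 and 1095 were higher in U251, and past 8-fold these were 199 and 254, since fewer genes entered. A pseudocount of 1 left 131 and 173 past 8-fold, since it shrinks ratios of low genes. With a limit of 0 reads, 132 genes were lost in U251 and 178 in U87, with a limit of 10 reads 349 were lost in U251, and with an FPKM of at least 5 in the other line 65 and 71 were. The other alternatives for these counts moved them by less than 1.5 times, and no median of chromosomes 1, 6, 18 or 22 changed sign. Of the 241 named genes 188 were past 2-fold, and 179 of these stayed so with a pseudocount of 1 and 185 after rescaling to TPM. Of 31 lists, 10 had a median beyond 1 on the log2 scale in either direction, of which 8 stayed there with a pseudocount of 1 or with FPKM of at least 5, and 3 without a filter. With FPKM of at least 5, the medians of the mesenchymal, cytokine, astrocyte and collagen lists fell close to 0, and without a filter that of the matricellular and elastic fibre genes together went from -0.31 to 0.30 and that of the HOX list from -2.00 to -0.94. Rescaling to TPM moved the median of all genes to -0.08 and the share of 2-fold calls that were higher in U87 from 46.6% to 42.6%. The alternatives for chromosome medians, the filter on mean FPKM for lists, the grouping of zinc finger genes and the windows were chosen after seeing the data. No replicate could be left out, and low counts limit genes near the floor. No paired analysis was possible because each line has 1 library.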

Other observations

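Noncoding genes were outside the comparison above. Of 1396 long noncoding genes with a length of at least 200 bases and an FPKM of at least 1 in either line, chosen after the protein-coding values were seen, 467 were more than 2-fold higher in U87 and 337 in U251, and 57.6% were past 2-fold against 30.1% of the protein-coding genes compared. Their median log2 ratio was 0.20. The shares were not matched for level or read count, and short genes can pass the filter on few reads. AL358117.1, of 219 bases, passed with 29 reads in U251. LINC01444 on chromosome 18 had 4 reads in U251 and 1263 in U87, that is an FPKM of 0.143 and 52.3. PURPL on chromosome 5 had 0 reads in U251 and 654 in U87 (at least 253-fold). In the other direction, GATA2-AS1, antisense to the transcription factor GATA2, had 314 reads in U251 and 0 in U87, and LINC02506 had 239 and 0. An antisense gene cannot be told from its partner here, since strand-specific counting was not stated.

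GATA2 itself had an FPKM of 4.63 in U251 and 0.0124 in U87. It was named after its values were seen, because it overlaps this noncoding gene.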
